A study of Homo sapiens with 4 samples.

Results

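The 2-mismatch probes of human microRNAs on this array are control oligonucleotides, each a copy of a probe for one microRNA altered at 2 positions. They were chosen by name: every probe labelled as a human miR or let-7 probe and marked as a 2-mismatch version, which gave 455 of the 604 mismatch probes and of the 1406 probe names per array. Each was paired with the matched probe of the same microRNA. A pair was left out where its mismatch probe was listed at 0 on any array, which removed 23 and left 432 human pairs. The remaining mismatch probes belong to mouse (76) and viral (73) microRNAs, and 576 pairs of all origins had no 0.

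The RNA came from LAPC-4, a human prostate cancer cell line that responds to androgen. Cells were held for 24 h in medium with 10% charcoal-stripped serum, which lacks androgens, and then given R1881, a synthetic androgen, at 0, 0.1, 1 or 10 nM. How long the cells were exposed is not given in the sources used here. Total RNA was labelled with Cy3 and hybridised to CombiMatrix arrays, with 1 array per dose and no replicate, so dose and array cannot be told apart. All 4 cultures shared the cell line and the androgen-free medium, and the 3 treated arrays are compared with the same untreated array.

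MicroRNAs are short RNAs that pair with target messenger RNAs mainly through their seed, the bases near the 5′ end, and lower the output of those targets. On an array, a labelled microRNA binds a complementary probe, and each mismatch weakens that binding. A mismatch probe therefore reads nonspecific binding and local background together with whatever the microRNA still contributes. The ratio of matched to mismatch probe describes how well the array tells a microRNA from a changed sequence, and it cancels any scale factor common to an array, but not an added background.

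The sources used here give neither the sequences of the probes nor the positions of the 2 mismatches. The mature microRNAs are shown instead, from RefSeq on GRCh38.p14. A mature sequence was found for 369 of the 432 pairs (85.4%), 263 of them by an arm or newer name assigned by hand and the rest by the array's own name. The first set holds the 6 microRNAs whose ratio passed the dose test described below. Capitals mark the seed, bases 2 to 8.
miR-16: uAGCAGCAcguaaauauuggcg
miR-15a: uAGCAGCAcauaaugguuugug
miR-29b: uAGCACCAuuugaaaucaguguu
miR-29c: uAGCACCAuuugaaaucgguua
miR-21: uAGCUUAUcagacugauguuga
let-7d: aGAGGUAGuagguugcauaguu
miR-16 and miR-15a share 1 seed, and miR-29b and miR-29c share another. miR-16 is encoded at chr3:160404754-160404775 on the plus strand, within the span of SMC4, and at chr13:50049027-50049048 on the minus strand, within DLEU2. miR-15a lies beside the latter copy at chr13:50049167-50049188. miR-29b lies at chr1:207802450-207802472, within MIR29B2CHG, and at chr7:130877467-130877489, and miR-29c at chr1:207801865-207801886, all on the minus strand. miR-21 lies at chr17:59841273-59841294 within VMP1 and let-7d at chr9:94178841-94178862, both on the plus strand.

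The next set has the brightest or best separated pairs and close relatives among them, with the seed again in capitals.
let-7a: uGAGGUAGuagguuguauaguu
let-7f: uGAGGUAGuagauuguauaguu
let-7c: uGAGGUAGuagguuguaugguu
miR-103: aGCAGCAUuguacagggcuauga
miR-107: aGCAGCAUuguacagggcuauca
miR-191: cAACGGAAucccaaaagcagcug
let-7a, let-7f and let-7c have 1 seed and differ outside it, and miR-103 and miR-107 differ at 1 base. miR-107 lies within PANK1 at chr10:89592756-89592778 on the minus strand. miR-103 comes from copies within PANK3 at chr5:168560904-168560926, minus strand, and within PANK2 at chr20:3917541-3917563, plus strand. miR-191 lies at chr3:49020672-49020694 on the minus strand, within DALRD3.

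The last set has microRNAs whose mismatch probe was unusually bright, or brighter in the treated cells. Capitals mark each C, where a complementary probe carries G.
miR-568: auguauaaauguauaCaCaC
miR-489: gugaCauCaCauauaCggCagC
miR-105: uCaaaugCuCagaCuCCuguggu
miR-554: gCuaguCCugaCuCagCCagu
miR-342: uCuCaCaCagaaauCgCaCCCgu
miR-574: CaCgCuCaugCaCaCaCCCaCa
miR-197: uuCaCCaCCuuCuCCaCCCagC
They lie within ZBTB20 (miR-568, chr3:114316535-114316554, minus), CALCR (miR-489, chr7:93483947-93483968, minus) and TUFT1 (miR-554, chr1:151545811-151545831, plus). miR-105 has copies within GABRA3 at chrX:152392265-152392287 and chrX:152394458-152394480, both on the minus strand. miR-342 lies within EVL at chr14:100109715-100109737, miR-574 within FAM114A1 at chr4:38868092-38868113 and miR-197 within GNAI3 at chr1:109598940-109598961, all on the plus strand.

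Most mismatch probes read at one low level on all 4 arrays. The median Mean Signal, the array file's unit of brightness, was 84 in untreated cells and 81.5, 87 and 75.5 at 0.1, 1 and 10 nM. Among the 432 pairs the lowest mismatch probes read 64, 62, 65.5 and 58.5, and the brightest 288, 353.5, 289 and 420. As a detection limit the 95th percentile of 107 matched virus and worm probes was taken, which came to 137.55, 141.5, 145.925 and 157.725. Over it stood 8 mismatch probes of the 432 pairs in untreated cells and 21, 21 and 18 at the 3 doses. Among all 455 these were 9, 21, 22 and 19, the added one being miR-191, described below. The 10 nM array thus had the lowest median mismatch signal and the highest limit.

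These control probes set the background of the authors' deposited table. There each listed value equals the Mean Signal less a constant of 84.5, 82, 87 or 76 for the 4 arrays, which is exactly the median of all 604 mismatch probes. The authors' deposited table lists only probes of at least 2 times that constant, 75 human matched probes in untreated cells and 91, 85 and 111 at 0.1, 1 and 10 nM. Among these, the microRNA's own mismatch probe was as bright as its matched probe for 0, 4, 1 and 3. By the same cutoff, 3 of all 455 human mismatch probes would themselves have counted as present in untreated cells, and 15, 8 and 21 at the 3 doses.

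Across all 432 pairs the matched probe was only slightly brighter than its mismatch probe. The median ratio was 1.13-fold in untreated cells, 1.12-fold at 0.1 nM, 1.11-fold at 1 nM and 1.17-fold at 10 nM. Single pairs ran from 0.464 to 29.4 in untreated cells and from 0.336 to 47.5 at 10 nM. The matched probe was the brighter one in 357 pairs of the untreated array (82.6%, exact binomial 95% interval 78.7 to 86.1, taking pairs as independent). It was brighter in 347 pairs (80.3%, 76.3 to 84.0) at 0.1 nM, in 306 (70.8%, 66.3 to 75.1) at 1 nM and in 351 (81.2%, 77.2 to 84.8) at 10 nM. The 1 nM array had the lowest share, and its mismatch probes had the highest median. Pairs on an array share its background and some share most of a sequence, so they are not independent replicates of a dose. The intervals therefore do not measure a difference between doses.

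On all 4 arrays the matched probe was brighter in 271 human pairs (62.7%), against 61.3% of all 576 pairs. A ratio of at least 2-fold on every array was reached by 68 human pairs (15.7%), against a background of 13.5%. Just inside that mark were miR-192, miR-99b and miR-27a, and just outside it miR-484, miR-365 and miR-148b. The miR-27a probes read 164.75, 175.25, 180.5 and 180.5 matched and 81.5, 79, 80 and 74 mismatched in order of dose. The miR-365 probes read 129.5, 139.5, 157.5 and 151.5 matched and 66, 64.5, 70.5 and 64 mismatched. The latter microRNA fell short of 2-fold only narrowly and on 1 array, the untreated one.

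Separation grew with the brightness of the matched probe, which is also the numerator of the ratio, so these are not independent measures. In the 250 pairs with a matched geometric mean under 100 the median ratio was 1.06-fold, a log2 ratio of 0.09. In the 114 pairs of 100 to 200 it was 1.32-fold, in the 31 of 200 to 400 it was 2.89-fold and in the 28 of 400 to 1000 it was 6.39-fold. In the 9 pairs of 1000 and above it was 18.6-fold, a log2 ratio of 4.21. Pairs whose mismatch probe had the higher mean numbered 74 in the dimmest class and 13 in the next. In the 200 to 400 class there was 1, miR-568, and there was none among the 37 brighter pairs. Classed by the geometric mean of both probes together, the medians were 0.11, 0.70, 3.03 and 4.64 on the log2 scale, the last over 4 pairs. The order stayed, but that mean still contains the matched probe and so does not remove the dependence.

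The mismatch side was almost flat over this range. In untreated cells the median mismatch signal was 81 in the dimmest class and 93 in the brightest, and at 10 nM it was 72.75 and 76. In the brightest class mismatch probes read 70 to 104.5 in untreated cells, 68 to 92 at 0.1 nM, 70 to 103 at 1 nM and 65.5 to 82 at 10 nM, below the detection limit throughout. Over the 37 pairs with a matched geometric mean of 400 or more, matched and mismatch means had a Pearson correlation of -0.168 and a Spearman correlation of -0.110 across pairs. Over the 364 pairs under 200 these were 0.408 and 0.498. Probes of a pair share an array and most of a sequence, and these values are given as description only.

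The part of the matched signal that the mismatch probe kept was computed for the same 37 pairs, after the median of all mismatch probes was subtracted from both. Its median was 0.773% in untreated cells and 0.232%, 1.17% and 0.175% at 0.1, 1 and 10 nM. In 5, 4, 6 and 4 pairs it was over 5%, and the highest values were 16.4%, 25.7%, 28.5% and 27.5%. For most of the bright pairs the mismatch probe thus stood at the array's own background.

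miR-16, whose family is known for lowering the survival factor BCL2, had the brightest matched probe after miR-191 and the highest ratio by the mean over arrays, though on the untreated array let-7a was above it in both. Its matched probe read 1880.25, 2666.75, 2853.5 and 3609.5 in order of dose, and its mismatch probe 93, 88, 77 and 76. Its mean ratio was 32.2-fold, and the matched probe was higher and the mismatch probe lower at each step of dose. let-7a, of the family that lowers RAS and HMGA2, read 2384, 2208.25, 2020.25 and 2437.5 matched and 81, 83.5, 92.5 and 80 mismatched, a mean of 26.8-fold. Its matched probe had no order by dose, and its mismatch probe was highest at 1 nM.

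miR-103 and miR-107, which lie in genes of pantothenate kinase, gave closely similar pairs. The miR-103 probes read 1732.5, 1993.5, 2040.25 and 2940.25 matched and 98.5, 90, 103 and 81 mismatched. The miR-107 probes read 1589.25, 1820.5, 2002 and 2773.5 matched and 90, 81, 100.5 and 75.5 mismatched. Mean ratios were 23.0-fold and 23.2-fold. The microRNAs differ at 1 base, and how much each matched probe's signal owes to the other microRNA was not tested.

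Below these in mean ratio came let-7d at 18.6-fold, miR-26a at 18.2-fold, miR-494 at 16.4-fold, let-7f at 14.6-fold and miR-21 at 13.0-fold, followed by miR-106b. The last belongs to a paralog of the growth-promoting miR-17-92 cluster. miR-26a read 1364.25, 1530.75, 1464 and 1871.25 matched and 95.5, 88, 87 and 71.5 mismatched. miR-494 had one of the dimmest mismatch probes of the group, at 70, 68, 72 and 65.5, under 921, 1060.5, 1197.75 and 1403.25 matched. In each of these pairs the 4 matched values lay far above the 4 mismatch values, with no overlap. The pairs were named for their high ratio, so this separation follows largely from that choice.

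The study's 2 designed mismatches can be set beside natural ones, microRNAs that differ from each other at 1 or 2 bases. Among the mature sequences 53 such pairs of microRNAs were found, and in 24 the brighter matched probe had a mean of 400 or more. In all 24 the dimmer relative's own matched probe was above the brighter one's mismatch probe, by at least 1.53-fold and with a median of 4.76-fold. Many of the 24 share a microRNA or a mismatch probe, above all in the let-7 family, so they are not separate observations. Where the brighter matched probe was under 400, some of these ratios were above 1 and others below it. let-7a gave the widest set. Its mismatch probe averaged 84.25, while the matched probes of let-7e, let-7c and let-7f, each at 1 base from let-7a, averaged 237.12, 463.88 and 1086.69. let-7d, at 2 bases, averaged 1691.5. The lowest value was that of miR-200c, whose family holds cells in an epithelial state by lowering ZEB1. Its mismatch probe averaged 100.38 and the matched probe of miR-200b 153.19. Relatives can be present in the cells in their own right and probes differ in binding strength, so how much a relative's signal owes to its brighter neighbour was not tested.

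At the other end, 34 human mismatch probes (7.87%) were brighter than their matched probes on all 4 arrays, against a background of 6.94%. Their mismatch means ran from 76 to 337.62 with a median of 103.69. The median excess over the matched probe was 1.18-fold and the highest 2.37-fold, and 6 exceeded 1.5-fold. In 33 of the 34 the matched probe was under the detection limit on every array, so the microRNA itself gave no signal to compare.

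miR-568 was the exception and had the brightest mismatch probe of the 432 pairs by its mean. Its matched probe read 133.5, 241.25, 227 and 288.5 in order of dose, over the limit on the 3 treated arrays, and its mismatch probe 288, 353.5, 289 and 420. The ratio was 0.464 in untreated cells and highest at 1 nM, still below 1. A cutoff on brightness alone would list this microRNA as present on the treated arrays, where its altered probe was brighter still.

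The lowest mean ratio was that of miR-621, at 0.422, for which no sequence was found. Its mismatch probe read 124, 204, 202.5 and 226.5 against 82, 74.75, 79 and 76 matched. miR-489 followed with 184, 225.5, 233.5 and 311 mismatched and 98.75, 103.75, 102.75 and 111 matched, and miR-105 with 114, 196, 197.5 and 217 mismatched and 80.25, 79, 83.75 and 87.25 matched. In all 3 pairs the mismatch probe was lowest in untreated cells, while the matched probe stayed under the detection limit. miR-554 and miR-656 had the same form. The miR-554 mismatch probe read 163.5, 166.5 and 170 on the treated arrays, and its matched probe read 77.5, 74.25, 77 and 81.

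Some other bright mismatch probes, those of miR-342 and miR-574, sat under a matched probe that was brighter still. miR-342 had the third brightest, at 146, 206.5, 205 and 225.5, under 529.25, 567.25, 500.5 and 619.5 matched. miR-574 read 118, 167, 160 and 163.5 mismatched and 501, 472, 446.25 and 574.5 matched. miR-197 read 110, 176, 171.5 and 196.5 mismatched and 132, 152.75, 152.75 and 171.25 matched, so its mismatch probe was the brighter one on the treated arrays alone. These 3 microRNAs are rich in C, as the printed sequences show.

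Base composition was therefore compared across the 369 pairs with a sequence, after the bright probes had been seen. GC content and mean log2 mismatch signal had a Pearson correlation of 0.328 and a Spearman correlation of 0.394, and the Spearman correlation was 0.545 over the pairs named exactly as on the array. Over the 369 pairs the Spearman correlation was 0.385 with the G content alone and 0.024 with the C content alone. Over the exactly named pairs these were 0.458 and 0.155. The Pearson correlations over the 369 pairs were close, at 0.175 for G and 0.192 for C, so the contrast of G with C depended on the measure. Matched probes under the detection limit on all arrays showed the same relation, with a Spearman correlation of 0.399 for GC content over 268 pairs and a higher one for G alone. Of the 20 brightest mismatch probes 18 had a sequence, with a median C content of 35.7% against 21.7% over all 369 and a median GC content of 57.1% against 45.5%. When the pairs were ordered by C content and cut into 3 sets of 123, mismatch means of 100 or more were found in 14, 6 and 32. The C-rich set had the most, but the middle set had the fewest, so there was no even gradient. These figures are descriptions across probes that share arrays, and the part of composition in the signal was not tested.

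On intensities as deposited, more pairs differed from the untreated array at 10 nM than at the lower doses. A ratio at least 1.5-fold higher was found in 2 human pairs at 0.1 nM, 7 at 1 nM and 41 at 10 nM, against backgrounds of 0.868%, 1.56% and 8.51% of all pairs. A ratio at least 1.5-fold lower was found in 4, 5 and 4, against 0.694%, 0.868% and 0.868%. With 1 array per dose these folds have no test. The human shares of 0.463%, 1.62% and 9.49% for the higher ratios were near the backgrounds.

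The shift was seen in pairs whose matched probe carried signal. In the 87 pairs with the matched probe over the detection limit on all arrays, the median change of log2 ratio against untreated was 0.14, 0.09 and 0.47 at 0.1, 1 and 10 nM. In the 317 pairs under the limit on all arrays it was -0.01, -0.06 and 0.05. At 10 nM the 87 pairs had a median matched change of 0.35 and a median mismatch change of -0.12 on the log2 scale. Brighter matched probes and dimmer mismatch probes thus both entered the ratio. The 317 pairs had median changes of -0.09 matched and -0.15 mismatched, so the dimmer mismatch signal was not particular to the 87. Quantile normalization changed the counts of ratios at least 1.5-fold higher or lower, taken over all human pairs and not the 87 alone. At 1 nM 4 were higher and 11 lower, in place of 7 and 5. At 10 nM 3 were higher and 7 lower, in place of 41 and 4. At 0.1 nM 3 were higher and 3 lower, and at all 3 doses 3 were higher and 0 lower.

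A straight line of log2 ratio over the 4 doses in rank order was fitted to all 576 pairs with limma. The ratio rose in 6 human pairs and fell in 0 at an adjusted p under 0.05, with backgrounds of 1.56% and 0% of all pairs. The human share of 1.39% was no higher than the background, which held 1 mouse pair and 2 pairs of a herpesvirus whose microRNAs are not human genes. At an unadjusted p under 0.05, 66 human pairs had a rising line (background 14.4%) and 14 a falling one (2.78%). With 2 residual degrees of freedom, these p-values measure how closely 4 arrays follow a line, not the spread between cultures.

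miR-16 had the steepest slope of the 6, 0.40 ± 0.05 per dose step (log2, SE, 4 arrays; limma, adjusted p = 0.0284). Its ratio was 2.35-fold that of untreated cells at 10 nM, from a matched probe 1.92-fold higher and a mismatch probe at 0.817 of its untreated value. miR-15a, from the same seed family, read 308.75, 371.75, 361.25 and 481.25 matched and 92, 83.5, 76.5 and 77 mismatched, with a slope of 0.28 ± 0.05 (limma, adjusted p = 0.0404). In both, the untreated array had the lowest matched and the highest mismatch value.

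miR-21, widely described as a tumour-promoting microRNA that androgen can raise, read 841.25, 1054.5, 1291 and 1539.75 matched and 93.5, 88, 92.5 and 82 mismatched. Its slope was 0.34 ± 0.04 (limma, adjusted p = 0.0284), and its ratio at 10 nM was 2.09-fold that of untreated cells. Here the matched values climbed at every step while the mismatch values had no order by dose.

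The miR-29 family, known for lowering collagens and DNA methyltransferases, gave a further pair of calls. miR-29b read 631, 722.5, 840 and 1098.5 matched and 82.5, 78, 76.5 and 68 mismatched, a slope of 0.35 ± 0.05 (limma, adjusted p = 0.0373). miR-29c read 299.5, 390.5, 465 and 471.5 matched and 65, 68, 66 and 60 mismatched, a slope of 0.26 ± 0.04 (limma, adjusted p = 0.0404). At 10 nM their ratios were 2.11-fold and 1.71-fold those of untreated cells. let-7d read 1456.5, 1597.5, 1796.25 and 1915.75 matched and 104.5, 92, 89 and 79 mismatched, with a slope of 0.26 ± 0.04 (limma, adjusted p = 0.0404). Its mismatch probe was lower at every step, so the ratio rose 1.74-fold on a matched change of 1.32-fold.

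All 6 calls were lost without the untreated array (0 human pairs passed), without the 0.1 nM array (0), with quantile normalization (0) and with a subtracted virus and worm background (0), while all 6 slopes stayed positive. The miR-16 slope of 0.40 became 0.32 and 0.41 without those arrays and 0.30 after the subtraction, but 0.18 with quantile normalization. That normalization also took the slope of miR-21 from 0.34 to 0.13. Without the 1 nM array 88 human pairs passed, 75 upward and 13 downward, and without the 10 nM array 23, 12 upward and 11 downward. All 6 were among them both times. There the fit gave the 6 slopes one common SE, 0.044 without the 1 nM array and 0.078 without the 10 nM array. When the ratios were centred on the 87 brighter pairs, an alternative chosen after seeing the data, none of the 6 passed and miR-621, miR-105 and miR-554 passed downward.

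Among pairs over the limit that were higher at all 3 doses, the largest mean differences in ratio after miR-16 included those of miR-594 and miR-148a, which did not pass the test. miR-594 read 298.25, 456, 519.75 and 662 matched and 119.5, 102.5, 133.5 and 117 mismatched. miR-148a, which lowers a DNA methyltransferase, read 566.25, 735.25, 856 and 964.75 matched and 82, 77.5, 96 and 71 mismatched. In both the matched probe was lowest in untreated cells, and the mismatch probe had no order by dose.

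The ratio was at least 1.5-fold higher at all 3 doses in 2 human pairs, miR-594 and miR-211, against a background of 0.694%. miR-211 was picked out after its values were seen, and it read 86, 135.75, 129.5 and 164 matched and 79, 71.5, 73 and 72.5 mismatched. Its matched probe passed the detection limit on the 10 nM array alone. The ratio was at least 1.5-fold lower at all 3 doses in miR-105, miR-554 and miR-621, against a background of 0.521%. There the mismatch probe was 1.62-fold to 1.90-fold above its untreated value, while the matched probe was 0.91-fold to 1.09-fold.

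Lower ratios among the brighter pairs came about in different ways. For miR-574 and miR-342 the ratio was below the untreated value at every dose while the mismatch probe was 1.36-fold to 1.54-fold brighter. The miR-574 ratio went from 4.25-fold in untreated cells to 2.83-fold, 2.79-fold and 3.51-fold. For miR-99a, a member of a family that lowers mTOR, the matched probe read 533.5, 489.75, 354.75 and 418.75 and the mismatch probe 83, 81.5, 100 and 76. Its matched probe was dimmer on each treated array and its ratio was lowest at 1 nM, at 3.55-fold against 6.43-fold untreated. miR-192 read 240.75, 225.5, 190.5 and 216 matched and 88, 93, 95 and 102 mismatched, lower on the one side and higher on the other at each dose. None of these passed the dose test.

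Groups of related microRNAs were set against all 432 pairs, of which 31.2% (background 31.2%) had a higher ratio at all 3 doses and 100 (23.1%, background 23.1%) a lower one. All 4 members of the miR-15 and miR-16 family were higher at all 3 doses, with a median mean change of 0.41 on the log2 scale, and 2 passed the test. Of 14 members of the miR-17-92 cluster and its paralogs 12 were higher and 2 lower, with a median of 0.37, and 0 passed. Matched probes were over the limit on all arrays in 10 of the 14 and on no array in 4. Some members, such as miR-106a and miR-17-5p, differ at 1 base, so the 12 need not be separate observations. Both measured members of the miR-29 family passed. For comparison, the median mean change was 0.01 over all human pairs and 0.22 over the 87 brighter ones, of which 51 were higher and 14 lower at all 3 doses.

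The let-7 family had 9 members, all over the limit, and 8 with at least a 2-fold ratio on every array. The ratio was higher at every dose in 5 and lower in 1, the median change was 0.17, and 1, let-7d, passed. In the miR-30 family the ratio was higher in 0 of 5 and lower in 3, with a median change of -0.20, and 0 passed. The summed matched signal of the 5 was nevertheless lowest in untreated cells, at 1753.5, 2038.5, 1869 and 2234.5 in order of dose. Their summed mismatch signal was also lowest there, at 381, 429.5, 471 and 444, so the lower ratios do not mean lower matched signal. In 1 of these 5 the matched probe was under the limit on every array. The 5 members of the miR-99 and miR-125 group, all with at least a 2-fold ratio, had 1 higher and 2 lower with a median of -0.09. miR-125b read 437.25, 408.25, 279.5 and 317 matched and 80, 75.5, 73 and 68.5 mismatched, with both probes lower on every treated array. In the miR-181 family of 4, 0 reached 2-fold on all arrays.

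MicroRNAs described as raised by androgen numbered 9 measured pairs, of which 5 had a higher ratio at all 3 doses, 0 a lower one and 2, miR-21 and miR-29b, passed. Their median change was 0.19, and in 2 of the 9 the matched probe was under the limit on every array. Those described as lowered by androgen numbered 6, of which 1 was higher and 2 lower with a median of -0.02 and 0 passed. miR-221, in the latter list, read 231.5, 256.75, 261.25 and 285 matched and 95, 96, 93.5 and 94.5 mismatched. Its matched probe was lowest in untreated cells and its mismatch probe was nearly level. Both lists were drawn up with earlier results of these arrays known and are no independent evidence of direction.

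The mismatch probes' own brightness was fitted with limma over the 1378 probes with no 0. No human mismatch probe passed the trend over dose, rising or falling, against backgrounds of 0.871% and 0%, and the smallest adjusted p was 0.0535, for miR-662. At an unadjusted p under 0.05, 30 had a rising line (background 13.3%) and 44 a falling one (7.62%). miR-662 read 94.5, 111, 122.5 and 138 mismatched and 89.75, 90.5, 96 and 94 matched. Scaling to the array median gave 25 human mismatch probes and normexp background correction 18.

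By size alone, and with no test because the untreated group is 1 array, 7 human mismatch probes were at least 1.4-fold above untreated at every dose (background 1.22%). They were those of miR-105, miR-554, miR-621, miR-550, miR-197, miR-342 and miR-18a*. The mean difference of the treated arrays from the untreated one was 0.83 on the log2 scale for miR-105, 0.76 for miR-621, 0.74 for miR-550 and 0.72 for both miR-554 and miR-197. The miR-550 mismatch probe read 91, 147.5, 146.5 and 162. The miR-18a* mismatch probe, picked out after its values were seen, read 97, 140.5, 143 and 165.5, over a matched probe of 91.5, 107.5, 117 and 137. The untreated array stood below the treated ones in these probes because they were selected for that. The 1.4-fold cutoff was not among the planned settings and is lower than the 1.5-fold used for ratios. None was 1.4-fold below at every dose (background 0%).

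The 23 pairs left out were each at 0 on exactly 1 array, 8 at 0.1 nM, 7 at 1 nM, 8 at 10 nM and 0 in untreated cells. For 4 of the 23, miR-126, miR-191, miR-26b and miR-29a, the matched probe was over the limit on all arrays. The miR-26b probes read 927, 969, 928 and 1058 matched and 72.5, 0, 76 and 64 mismatched, so its mismatch probe stood near background wherever it was measured.

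miR-191, which has been described as raised in several tumours, behaved differently. Its matched probe was the brightest of all human microRNAs with a mismatch probe, at 4061.75, 3956, 3592 and 4605.5. Its mismatch probe read 193.5, 0, 305.5 and 761, over the detection limit on the 3 arrays where it was not at 0. After the median mismatch signal was subtracted it kept 2.74% of the matched signal in untreated cells, 6.23% at 1 nM and 15.1% at 10 nM. The matched probe moved far less over the same arrays than the mismatch probe did.

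Mouse and viral pairs gave the same picture at the dim end. The median ratio was 1.10, 1.11, 1.07 and 1.10 over 73 mouse pairs and 1.08, 1.08, 1.05 and 1.12 over 71 viral pairs, beside 1.13, 1.12, 1.11 and 1.17 for human ones. Both other groups had their lowest median at 1 nM, as the human pairs did.

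Most microRNAs that mark other cell types gave little matched signal to read. All 6 blood, both stromal, the liver and both neuronal markers had matched probes under the limit on every array, as did miR-205 of basal epithelium. Of 4 muscle markers 3 were under it throughout and 1 was over it on all arrays. Among these 4 the highest matched value was 182 and the highest mismatch value 150, and 0 reached 2-fold on every array. Of 5 measured prostate epithelial markers 2 were over it on all arrays, among them miR-200c at 683, 722, 735.25 and 866 matched and 97.5, 99, 112 and 93 mismatched, and miR-141 at 369.75, 354, 341.75 and 374 matched and 86.5, 83, 87 and 86.5 mismatched. Both kept a ratio well over 2-fold at every dose. No other marker of these 5 reached 2-fold on all arrays, and 1 was under the limit on every array. The miR-200a pair was among those left out.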

How the data were processed

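Per the file headers, each array file gives a Mean Signal per probe name, a linear intensity deposited by the authors without normalization. Every mismatch value falls in steps of 0.5 and every matched human value in steps of 0.25, so values were averaged over spots before deposit, over how many is not given in the sources used here. The authors' deposited series table is an intensity less a constant per array and holds no mismatch probes. Ratios were taken as log2(matched/mismatch) within each array, on intensities as deposited.

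limma 3.58.1 in R 4.3.3 fitted a line over dose rank (0, 0.1, 1 and 10 nM) to 576 pairs, with eBayes and Benjamini-Hochberg adjustment over all of them, after a test on simulated data. Mismatch intensities were fitted over 1378 probes. Each dose has 1 array, which limits the precision.

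Named were the 12 brightest matched probes, the 10 highest and lowest ratios, the 10 brightest mismatch probes, passing pairs, the 6 largest rises and falls among pairs over the limit, pairs beside the 2-fold mark and up to 4 per list, a selection of which is printed. Members and lists were chosen with earlier results of these data known. Alternatives changed background, scaling, the trend's form, thresholds and single arrays.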

Additional observations from a re-analysis of the deposited data

Results flagged for a closer look

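The mismatch probe of miR-191 was outside the 432 pairs because it was listed at 0 on the 0.1 nM array, but it carried signal elsewhere. At 10 nM it read 761, against a detection limit of 157.725 from virus and worm probes and a highest value of 420 among the mismatch probes used. The same probe read 193.5 in untreated cells and 305.5 at 1 nM.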

How the results depend on the processing

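No paired analysis was possible because each dose has 1 array and the shared replicate number only names a sample. Against 6 human pairs passing the ratio trend, normexp background correction gave 3 (miR-16, miR-21 and miR-29b). A subtracted virus and worm median, quantile normalization, treated against untreated arrays and an intensity trend in eBayes each gave 0. Dose as linear nM gave 17, of which only miR-29b was among the 6. Centring on the brighter pairs gave 3 (other pairs). The array median of mismatch probes as denominator gave 56, with all 6 included. These last 2 settings were chosen after seeing the data. Leaving out 1 array gave 0 to 88. Against 0 mismatch probes with an intensity trend, treated against untreated gave 5, median scaling 25, normexp 18 and leaving out 1 array 0 to 16. The contrast of treated with untreated holds 1 untreated array and the treated doses as replicates, so nothing is read from its calls.

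The median log2 ratio per array (0.17, 0.16, 0.15 and 0.23) became 0.21, 0.21 and 0.20 on the first 3 arrays with normexp, and 0.00 on all 4 after the subtraction, where most pairs sit at the floor of 10. It was 1.31, 1.36, 1.29 and 1.59 over the 115 pairs with a matched probe over the limit. The share of brighter matched probes became 37.5%, 37.5%, 36.1% and 39.6% after the subtraction and 96.5%, 94.8%, 95.7% and 98.3% over the limit. Against 68 pairs of at least 2-fold on all arrays, the subtraction gave 113 and a fold of 4 gave 33.

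Ratios changed 1.5-fold against untreated in 6, 12 and 45 pairs at 0.1, 1 and 10 nM and in 5 at all 3 doses. After the subtraction these were 62, 80, 111 and 38, with a threshold of 5 to 4 in place of 1.5 they were 34, 52, 104 and 20, and with a fold of 2 they were 0, 0, 7 and 0. normexp gave 20 at 1 nM, quantile normalization 15 at 1 nM, 10 at 10 nM and 3 at all 3 doses, and pairs over the limit 3 at 0.1 nM and 2 at all 3 doses. Class medians from dimmest to brightest became 0.00, 1.02, 3.92, 5.39 and 7.29 after the subtraction and 0.11, 0.70, 3.03 and 4.64 by both probes, with no pair in the brightest class.

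The cause of these shifts was not tested. The deposited series table could not serve as an alternative for ratios, since it holds no mismatch probes. Signal over background limits most pairs: 317 of 432 had a matched probe under the detection limit on all arrays, so their ratios carry little of the microRNA, and 1 array per dose leaves no estimate of the spread between cultures.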
